A study of Caenorhabditis elegans with 17 samples.

Results

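The mir-35 family of Caenorhabditis elegans comprises 8 microRNA genes, mir-35 to mir-42, and these were taken by locus name from the 224 miRNA genes counted in 17 small RNA libraries. The family is known for its abundance in oocytes and embryos, where its members act redundantly and are together required for embryonic development. A miRNA is cut from a hairpin precursor, and 1 arm of the hairpin is retained by an Argonaute protein as the guide for target mRNAs. In this family the members share their seed, the short stretch at the guide's 5′ end that pairs with targets, so their targets overlap.

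Libraries were made from whole worms, with 1 library per condition. Young adult total small RNA was collected from eri-1(mg366) worms subjected to RNAi against fib-1 (fibrillarin), mtr-4 (the helicase that feeds the nuclear exosome) or nol-56 (a box C/D snoRNP protein), or to the empty vector L4440. Small RNAs bound to 3xFLAG::GFP::NRDE-3, a nuclear Argonaute of siRNAs, were immunoprecipitated (IP) with anti-FLAG beads from L3 larvae of 5 genotypes, all eri-1(mg366), namely dis-3(ust56), the same allele together with both rrf-1(pk1417) and rrf-2(ok210) (below, the triple mutant, which like the others also carries eri-1(mg366)), exos-1(ust57), exos-10(ok2269), and the control with no further mutation. L3 total small RNA came from the same 5 combinations of eri-1, exosome and polymerase alleles, for which the labels give no tagged NRDE-3, and, without eri-1(mg366), from dis-3(ust56), exos-1(ust57) and wild-type N2. DIS-3 is a catalytic ribonuclease of the RNA exosome, EXOS-1 and EXOS-10 are exosome subunits, RRF-1 and RRF-2 are RNA-dependent RNA polymerases, and loss of the exonuclease ERI-1 enhances RNAi. The 4 young adult libraries were the only RNAi-fed ones, so stage and feeding cannot be told apart, and whole worms do not separate fewer cells of a type from less RNA per cell.

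Sense miRNA reads numbered 466574 to 1207617 in the 4 young adult libraries, 9776 to 791848 in the 5 IP libraries and 769824 to 3064798 in the 8 L3 total libraries. Antisense reads on each RNAi target marked its own library, with 35771 fib-1 reads per 1000000 counted reads in the fib-1 RNAi library, 68140 mtr-4 reads in the mtr-4 RNAi library and 19737 nol-56 reads in the nol-56 RNAi library, against 42.8, 13.8 and 17.9 in the L4440 library for fib-1, mtr-4 and nol-56. The mtr-4 RNAi library also held 225 fib-1 antisense reads per 1000000 counted reads, against 4.84 in the nol-56 RNAi library. Stage labels of the total libraries were checked with marker mRNAs. Fragments of the 6 vitellogenin (yolk) genes summed to 36838 to 72123 per 1000000 sense protein-coding reads in the young adult libraries, against 3.29 to 38.3 in the L3 total libraries. Fragments of the 5 adult cuticle genes summed to 831 to 2524 in young adults, against 3.76 to 218 in L3 total libraries. In the 5 IP libraries, labelled L3, the sums were 16.7 to 2613 for yolk and 7.18 to 613 for cuticle. Some IPs thus lay above every L3 total library, and whether this reflects stage was not tested. Most of the adult cuticle reads in young adults came from col-19 (823 to 2100, against 0 to 5.14 in L3). The listed genes bli-1, bli-2 and col-62 did not separate the stages. Under L4440 col-62 had 2.43, against up to 9.58 in L3 total libraries, and col-7 had 5.30, against up to 5.10. Under fib-1, mtr-4 and nol-56 RNAi both were higher, at 16.6 to 170 for col-62 and 33.0 to 323 for col-7. In young adults bli-1 had 31.5, 45.0 and 109 under fib-1, mtr-4 and nol-56 RNAi, against 0.221 (1 read) under L4440. For bli-2 these were 16.9, 33.3 and 76.2, against 0.221 (1 read). The exos-1(ust57) and N2 libraries stood apart from the other 6 L3 libraries, with cuticle sums of 179 and 218, against 3.76 to 16.0, mainly through bli-1 (88.4 in exos-1(ust57) and 116 in N2, against 0 to 1.65 in the other 6) and bli-2, and with let-7, a miRNA of the late larva, at 6134 and 11931 sense reads per 1000000 sense miRNA reads, against 296 to 4201.

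The genes mir-35 to mir-41 form a cluster on the plus strand of chromosome II. In the WBcel235 annotation, which is not the release the counts were made on, their hairpins span chrII:11537608-11538404 and are separated by gaps of 2 to 61 bases. All 7 hairpins lie in an intron of the protein-coding gene Y62F5A.9, which runs on the opposite strand, and annotated ncRNA exons on the same strand overlap mir-35, mir-36, mir-37 and mir-39, so reads there could be divided among annotations. The eighth gene, mir-42 (chrII:11889811-11889905, plus strand), lies 351406 bases away, upstream of mir-43 and mir-44, and overlaps an exon of the ncRNA ZK930.12 on the opposite strand.

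Each member had 3 rows in the counts, 1 for the hairpin and 1 for each arm. The 3′ arm, the guide strand of this family, held 98.0% to 99.9% of the arm reads over the 12 total libraries for mir-35, mir-36, mir-37, mir-38, mir-39 and mir-42. It held 86.1% for mir-40 (2539 reads, against 411 from the 5′ arm) and 59.8% for mir-41 (162 reads, against 109 from the 5′ arm). The 5′ arm of mir-40 accounted for 18.2% of its arm reads in the young adult libraries (95% Wilson interval 16.4% to 20.2%), against 8.92% in L3 (7.52% to 10.6%). It reached 32.6% in the fib-1 RNAi library (26.9% to 38.9%), and among L3 libraries it ranged up to 17.1%, so the stages overlapped library by library. For mir-41 the 5′ arm made up 0% to 28.6% of 6 to 16 arm reads in the 5 L3 libraries with eri-1(mg366), against 87.2% of 39 in dis-3(ust56), 41.7% of 12 in exos-1(ust57) (19.3% to 68.0%) and 80.0% of 20 in N2, and the exos-1(ust57) interval overlaps those of eri-1(mg366) libraries. Intervals here and below cover counting error only. The 3′ arm row held more reads than the hairpin row for mir-36 (5907, against 5396), mir-37 and mir-39, so arm reads were not all counted in the hairpin row, but the sources used here do not say whether a read could count in both. Levels below sum the 3 rows of a gene and are sense reads per 1000000 sense miRNA reads, abbreviated RPM. A library with 0 reads is compatible with up to 3.

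Family reads were most abundant in young adults on the empty vector and were lower when any of the 3 nucleolar or exosome-cofactor genes was targeted. The summed level of the 8 genes was 11488 RPM in the fib-1 RNAi library, 11331 RPM in the mtr-4 RNAi library and 1154 RPM in the nol-56 RNAi library, against 89041 RPM in the L4440 library. In L3 total libraries the family lay between 2496 and 5209 RPM (median 2915, n = 8). Hence, on this scale, 3 young adult libraries were above every L3 library and the nol-56 RNAi library was below all of them. Sense miRNA reads made up 3.84% to 7.04% of counted reads in young adults, against 12.1% to 39.4% in L3. The authors' normalization number (counted reads minus sense rRNA and protein-coding reads) gave another order. On it fib-1 RNAi (8162 family reads of 4651899) and mtr-4 RNAi (9861 of 5956783) lay below the L3 triple mutant (9472 of 3725013). The L4440 library (41544 of 3799446) stayed above every L3 library.

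**Figure D1:**
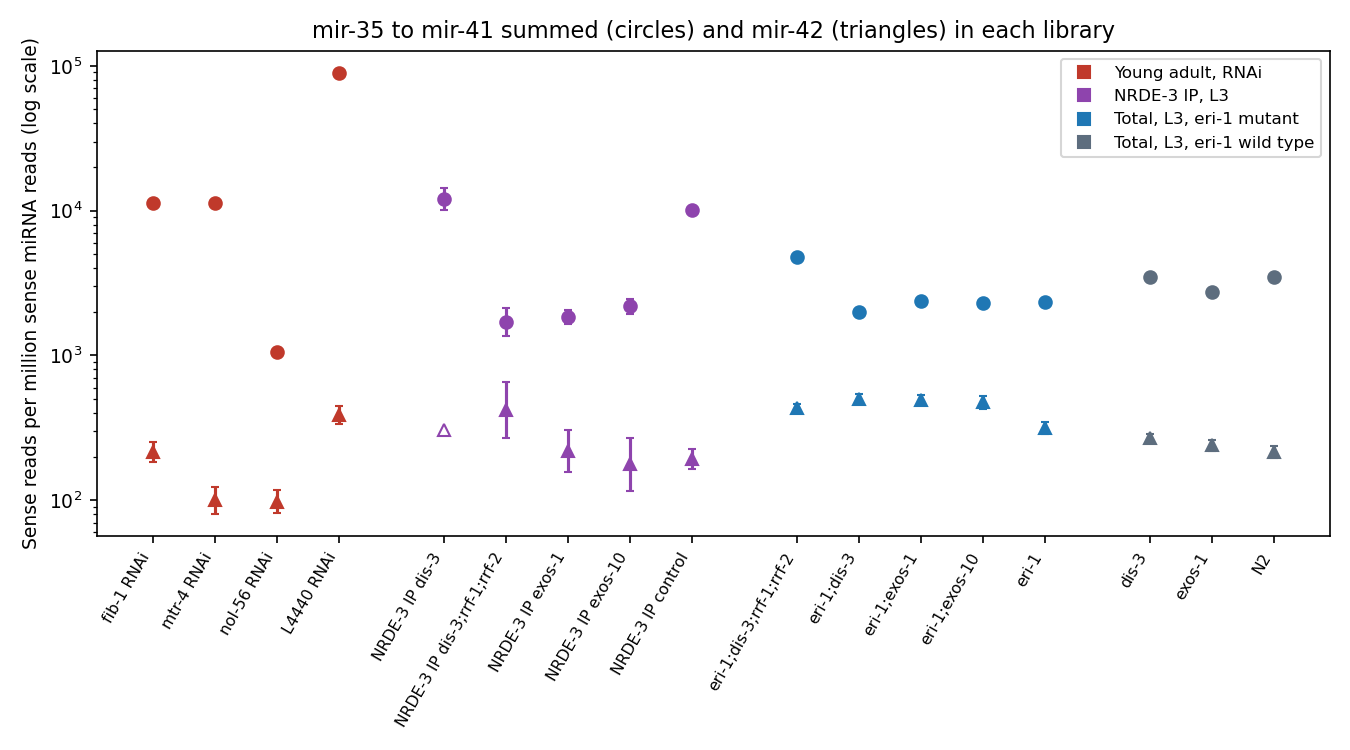
Level of the summed mir-35 to mir-41 cluster (circles) and of mir-42 (triangles) in each of the 17 libraries, in sense reads per 1000000 sense miRNA reads on a log axis; bars are 95% Wilson intervals, smaller than the symbol where not seen, and the open triangle marks 0 mir-42 reads, drawn at the level of 3 reads. The cluster is highest in the L4440 library (88653) and lowest in the nol-56 RNAi library (1057), whereas mir-42 stays between 97.7 and 503 in the 12 total libraries.

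Among single members in young adults, mir-35 had 2704, 3274 and 220 RPM in the fib-1, mtr-4 and nol-56 RNAi libraries, against 25220 RPM in the L4440 library. The 5 L3 libraries in the same eri-1(mg366) background ranged from 437 to 1320 RPM (median 499). For mir-37 the young adult levels were 2497, 2184 and 285 RPM under fib-1, mtr-4 and nol-56 RNAi, against 20468 RPM under L4440, and the L3 range was 175 to 449 RPM (median 351). For mir-39 they were 3423, 3038 and 239 RPM under the 3 RNAi treatments, against 24266 RPM under L4440, and 708 to 1819 RPM in L3 (median 894). In the L4440 library mir-35, mir-37 and mir-39 took ranks 10, 15 and 11 among all miRNA genes.

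For the other cluster members the L4440 library was likewise the highest and the nol-56 RNAi library the lowest of the 4 young adult libraries. Between them, mir-36 (1308 RPM under fib-1 RNAi and 1698 RPM under mtr-4 RNAi) and mir-41 (59.1 and 95.4 RPM) were higher under mtr-4 RNAi, whereas mir-38 (559 and 480 RPM) and mir-40 (722 and 461 RPM) were higher under fib-1 RNAi, and mir-40 under mtr-4 RNAi did not exceed the highest L3 library (463 RPM). In the L4440 library mir-36 had 10211 RPM, mir-40 5077 RPM, mir-38 2919 RPM and mir-41 491 RPM. Their L3 medians over the 5 eri-1(mg366) libraries were 312 RPM for mir-36, 208 RPM for mir-40, 147 RPM for mir-38 and 10.7 RPM for mir-41. In the nol-56 RNAi library mir-36 (163 RPM), mir-40 (74.5 RPM) and mir-38 (63.8 RPM) were each below all of those 5 L3 libraries, while mir-41 (10.8 RPM, 13 reads) was within their range. The gene mir-42 behaved differently, with 217, 100.0 and 97.7 RPM under fib-1, mtr-4 and nol-56 RNAi, against 388 RPM under L4440 and 314 to 503 RPM in L3 (median 475). No young adult library exceeded the L3 range of mir-42, and 3 of 4 were below it.

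**Figure D2:**
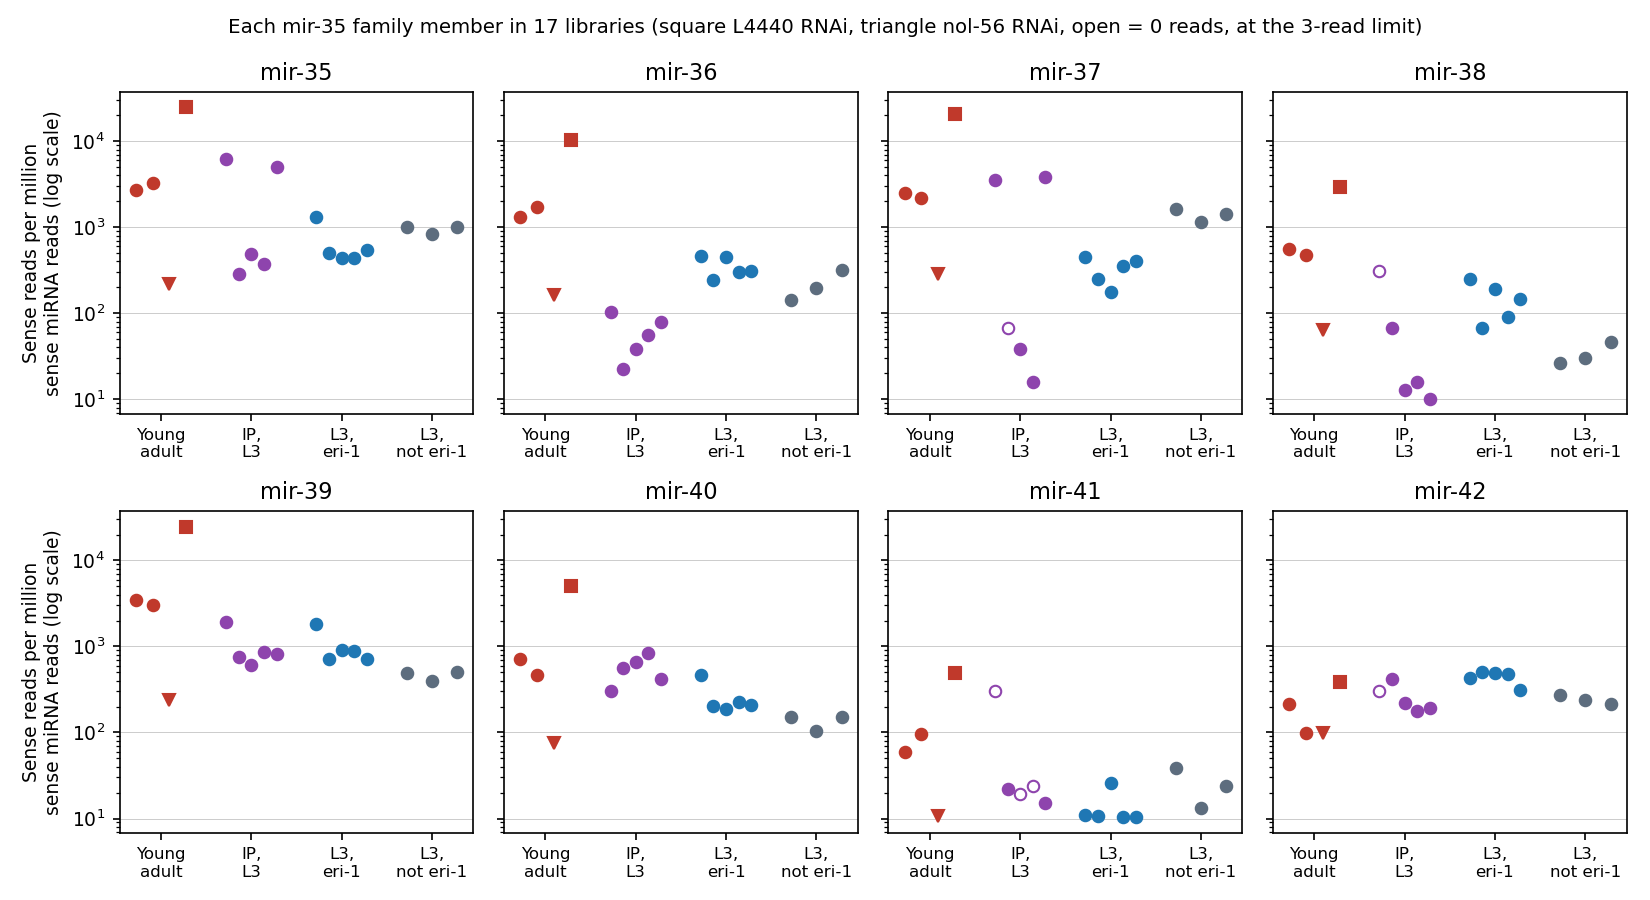
Level of each of the 8 members in the 17 libraries, in sense reads per 1000000 sense miRNA reads on a log axis, by group from left to right: young adult, NRDE-3 IP, L3 with eri-1(mg366) and L3 without it. Squares are the L4440 library, triangles the nol-56 RNAi library, and open symbols 0 reads drawn at the 3-read level; for mir-35 to mir-41 the square lies above every other point.

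To ask which miRNA genes differed between the stages beyond the spread of the libraries, the 4 young adult libraries were compared with the 5 L3 eri-1(mg366) libraries by edgeR's quasi-likelihood test over 139 miRNA genes. Libraries of different genotype or RNAi treatment served as replicates here, so the error includes those treatments. With Benjamini-Hochberg adjustment at 0.05, mir-35 to mir-41, 7 of 8 members, were higher in young adults, where 30.2% of all genes tested were called higher. The log2 fold changes were 4.29 ± 0.95 for mir-37 (SE, adjusted p = 0.0024), 3.60 ± 0.98 for mir-35 (0.0072), 3.55 ± 0.86 for mir-41 (0.0040) and 3.23 ± 0.86 for mir-36 (0.0062). They were 2.94 ± 0.92 for mir-39 (adjusted p = 0.014), 2.75 ± 0.83 for mir-38 (0.012) and 2.61 ± 0.89 for mir-40 (0.022). The eighth member, mir-42, was lower (-1.15 ± 0.43, adjusted p = 0.033), where 34.5% of genes were called lower. The median log2 fold change was 3.09 over the 8 members and -0.30 over all 139 genes.

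These estimates follow mean levels, to which the L4440 library contributed most. Without it only mir-35, mir-36, mir-37 and mir-41 were called higher, and on the mean of log2 levels, where each library weighs equally, the family differed by 1.81 between young adults (mean 13.39 ± 2.56, SD, n = 4) and L3 (11.59 ± 0.43, SD, n = 5), less than the SD among young adults. This difference was 0.79 without the L4440 library and 2.88 without the nol-56 RNAi library. The call of mir-42 was lost with TMM scaling (adjusted p = 0.11), with DESeq2 (0.12) and without any 1 of 6 libraries (0.051 to 0.093).

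**Figure D3:**
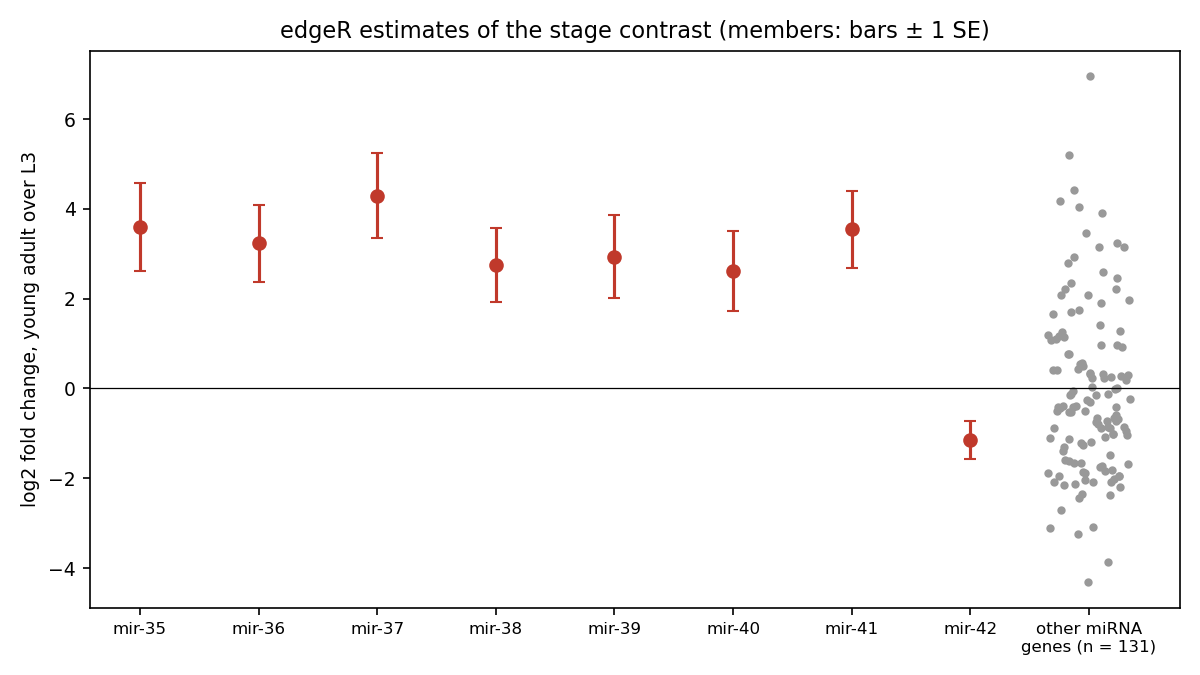
Log2 fold change of young adult over L3 in the edgeR fit, with bars of 1 standard error for the 8 members at left and the 131 other miRNA genes tested at right as grey points. The members mir-35 to mir-41 lie between 2.61 and 4.29 and mir-42 at -1.15.

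The neighbours of mir-42 on chromosome II were lower in young adults as well. Under fib-1, mtr-4, nol-56 and L4440 RNAi mir-44 stood at 8683, 5801, 4999 and 6211 RPM, against 37750 to 68406 RPM in the 5 L3 libraries (log2 fold change -3.09 ± 0.28, edgeR adjusted p = 8.7e-06), with no overlap between stages. Counts of mir-45, which lies apart and whose reads cannot be separated from those of mir-44 here, were nearly equal to them (-3.12 ± 0.27, edgeR adjusted p = 8.7e-06). The scarcer mir-43 also fell (-1.66 ± 0.39, edgeR adjusted p = 0.0039, 9.85 to 27.9 RPM in young adults, against 39.0 to 80.4 RPM in L3). Of the heterochronic miRNAs, which time larval cell fates, lin-4, let-7, mir-84 and mir-241 had log2 fold changes of 0.20 ± 0.38, 0.34 ± 0.70, 0.33 ± 0.28 and -0.13 ± 0.35 and were not called. In the mir-51 family, another essential embryonic family, mir-52 to mir-56 fell by 1.22 to 2.14 on the log2 scale and mir-51 was not called (-0.06 ± 0.40). Among the miRNA genes outside these groups, mir-85 (6.96 ± 0.96), mir-1817 (5.21 ± 0.84) and mir-5592.2 (4.43 ± 0.88) rose most, and mir-247 (-4.32 ± 0.53), mir-788 (-3.86 ± 0.48) and mir-4808 (-3.25 ± 0.67) fell most (edgeR adjusted p = 0.0016 or less for each).

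The fold of each RNAi library over its vector control rests on 1 library each, so ratios are given with exact conditional binomial 95% intervals for counting error and without p-values. The family was 0.129 times as abundant under fib-1 RNAi as under L4440 (0.126 to 0.132), 0.127 times under mtr-4 RNAi (0.124 to 0.130) and 0.0130 times under nol-56 RNAi (0.0123 to 0.0137). Across the 7 cluster members the ratio to L4440 ran from 0.107 for mir-35 to 0.191 for mir-38 under fib-1 RNAi, from 0.0908 for mir-40 to 0.194 for mir-41 under mtr-4 RNAi, and from 0.00873 for mir-35 to 0.0219 for mir-41 under nol-56 RNAi. Intervals of some members lay apart within a library, as for mir-35 (0.00771 to 0.00986) and mir-38 (0.0218, 0.0171 to 0.0275) under nol-56 RNAi. For mir-42 the ratios were 0.559 (0.448 to 0.697) under fib-1 RNAi, 0.258 (0.197 to 0.335) under mtr-4 RNAi and 0.252 (0.198 to 0.319) under nol-56 RNAi.

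At least 2-fold lower than under L4440 were 7 of 8 members under fib-1 RNAi, where 18.5% of the 135 miRNA genes with 10 or more reads in either library were, 8 of 8 under mtr-4 RNAi, where 12.1% of 140 were, and 8 of 8 under nol-56 RNAi, where 21% of 138 were. Set against L3 eri-1(mg366) worms, the L4440 library had 33.6 times the family level (32.5 to 34.9), with member ratios from 19.8 for mir-38 to 50.97 for mir-37 in the cluster and 1.23 (1.03 to 1.47) for mir-42. Here 7 of 8 members were at least 2-fold higher, as were 30.9% of 139 miRNA genes.

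Transcripts of oocytes and early embryos were examined beside the family, because whole worms hold gonad and embryos in amounts that may differ. The 12 oocyte and maternal genes of a fixed list (oma-1, oma-2, puf-5, rme-2, cbd-1, egg-1, egg-3, chs-1, spn-4, pos-1, mex-5 and pie-1) summed to 2928, 2627 and 594 sense reads per 1000000 sense protein-coding reads under fib-1, mtr-4 and nol-56 RNAi, against 6174 under L4440 and 36.9 to 141 in the 8 L3 libraries. All 12 had reads in every young adult library, and 12 of 12 were lower than under L4440 in each of the 3 RNAi libraries. The egg's yolk receptor gene rme-2, for example, had 298, 262 and 50.1 per 1000000 under fib-1, mtr-4 and nol-56 RNAi, against 614 under L4440. The family's order over the 4 young adult libraries (L4440, fib-1, mtr-4, nol-56) was the order of this list. The order of fib-1 and mtr-4 was not resolved for the family, whose intervals overlapped (11243 to 11738 and 11111 to 11556 RPM). The nol-56 RNAi library, with fewer family reads than any L3 library, had more oocyte reads than all of the L3 libraries.

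Among the other lists, under fib-1, mtr-4 and nol-56 RNAi the summed ratio to L4440 was 0.229, 0.287 and 0.239 for 10 early embryo genes, 0.608, 0.836 and 0.511 for the 6 yolk genes and 0.606, 0.929 and 0.442 for 31 major sperm protein genes. Lower in these libraries were 8, 9 and 9 of the 10 early embryo genes, 6, 5 and 6 of the 6 yolk genes and 31, 24 and 31 of the 31 sperm genes. For the 5 adult cuticle genes it was 1.79, 2.83 and 3.04, with 5 of 5 genes higher in each RNAi library. Early embryo genes (end-1, end-3, elt-7, med-1, med-2, tbx-35, tbx-37, tbx-38, ceh-51 and hnd-1) had few reads. All 10 were detected under L4440 (159 reads), against 8, 6 and 4 under fib-1, mtr-4 and nol-56 RNAi (27, 42 and 43 reads), and end-1, end-3, med-1, tbx-35 and hnd-1 had 0 reads in all 8 L3 libraries. The gene hnd-1 supplied 65 of the L4440 reads. Under fib-1, mtr-4 and nol-56 RNAi elt-7 supplied 12, 26 and 27 reads. Its level was 3.57, 6.23 and 5.26 per 1000000 there, against 3.97 under L4440. Most reads of this list in L3 came from elt-7 and ceh-51 (56 and 47 reads), and its sum was 8.03 to 10.1 per 1000000 under the 3 RNAi treatments and 35.1 under L4440, against 9.88 to 49.8 in L3, so the stages overlapped. The part of oocyte and embryo content in the family's levels was not tested.

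**Figure D4:**
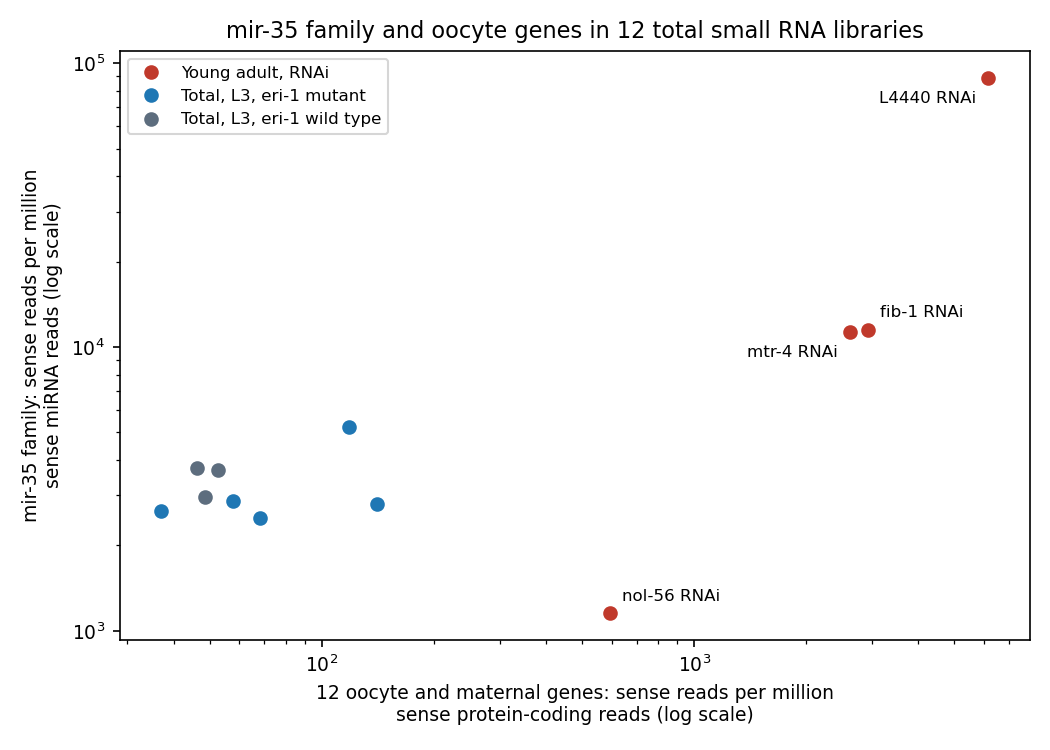
Level of the mir-35 family (vertical, sense reads per 1000000 sense miRNA reads) against the summed level of 12 oocyte and maternal genes (horizontal, sense reads per 1000000 sense protein-coding reads) in the 12 total libraries, both on log axes. The 4 young adult libraries lie on a rising line from nol-56 RNAi (594, 1154) to L4440 (6174, 89041), and the 8 L3 libraries, with 36.9 to 141 oocyte reads per 1000000, lie left of it.

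Across the 12 total libraries, the miRNA genes outside the family whose log2 level was most like that of the family were mir-258.1 (Pearson r = 0.71), mir-78 (0.68), mir-253 (0.67), mir-258.2 (0.66) and mir-82 (0.62), among 137 candidates with 100 or more reads. Spearman's rho for these 5 was 0.30 to 0.59. As a description, mir-258.1 had 114, 157 and 70.4 RPM under fib-1, mtr-4 and nol-56 RNAi, against 345 RPM under L4440 and 40.4 RPM in L3 eri-1(mg366). Within the family, the log2 level of mir-35 to mir-41 correlated with the family sum, of which it is part, at r = 0.85 to 0.99, and that of mir-42 at 0.07. All points share their libraries' depth and the L4440 library lies far from the rest.

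In L3 larvae the question was whether mutation of exosome subunits altered the family. The allele dis-3(ust56) changes 1 amino acid, and the paper proposes that it disrupts DIS-3 in part. The summed family had ratios to the control of 0.804 to 1.08 in the 5 mutants on the scale of sense miRNA reads. With the authors' normalization number as library size the ratio was instead 1.68 for dis-3(ust56) over N2 and, in the other direction than on the miRNA scale, 0.523 for exos-1(ust57) in eri-1(mg366). Without eri-1(mg366) the family had 3762 RPM in dis-3(ust56) and 2962 RPM in exos-1(ust57), against 3685 RPM in N2, ratios of 1.02 (0.991 to 1.05) and 0.804 (0.776 to 0.833). In the eri-1(mg366) background it had 2496 RPM in dis-3(ust56), 2869 RPM in exos-1(ust57) and 2789 RPM in exos-10(ok2269), against 2647 RPM in eri-1(mg366) alone, ratios of 0.943 (0.901 to 0.987), 1.08 (1.04 to 1.13) and 1.05 (0.998 to 1.11). Over the 5 mutant and 2 control libraries, with eri-1 genotype as a covariate, edgeR's quasi-likelihood test called 0 of 8 members, and 0% of 148 miRNA genes higher and 0% lower. At an unadjusted p under 0.05 there were 15 of 148 genes, none of them a member, and DESeq2 called 1 gene higher and 1 lower, again no member. Member log2 fold changes ran from -0.51 ± 0.47 for mir-38 (SE, edgeR adjusted p = 0.71) to 0.45 ± 0.32 for mir-42 (adjusted p = 0.60).

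Single members still differed between pairs of L3 libraries by more than counting error. In dis-3(ust56) mir-36 had 143 RPM, against 320 RPM in N2, a ratio of 0.447 (0.395 to 0.507), and mir-38 in the eri-1(mg366) background had 68.0 RPM in dis-3(ust56), against 147 RPM in the control, a ratio of 0.461 (0.362 to 0.586). In exos-1(ust57) the ratios of the 7 cluster members over N2 ran from 0.552 for mir-41 to 0.839 for mir-35, and 0 of 8 members were at least 2-fold lower, where 7.48% of 147 miRNA genes were. In eri-1(mg366) exos-1(ust57) worms 1 of 8 members (mir-41) was at least 2-fold higher than in eri-1(mg366), where 32.2% of 143 genes were, and 1 (mir-37) at least 2-fold lower, where 10.5% were. For mir-42 the ratio was above 1 in all 5 mutants, from 1.11 (0.970 to 1.28) in exos-1(ust57) over N2 to 1.60 (1.42 to 1.81) in eri-1(mg366) dis-3(ust56) over eri-1(mg366). The median log2 ratio over all miRNA genes compared was -0.22 for dis-3(ust56) and 0.09 for exos-1(ust57) over N2. Over eri-1(mg366) it was 0.30 for dis-3(ust56), 0.54 for exos-1(ust57) and 0.43 for exos-10(ok2269). The median gene thus rose too, except in dis-3(ust56) over N2, and a rise of mir-42 beyond it was not tested.

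The 2 libraries with dis-3(ust56) in eri-1(mg366) differed by the rrf-1(pk1417) and rrf-2(ok210) alleles. The family had 5209 RPM with these alleles, the highest L3 level, against 2496 RPM without them, a ratio of 2.09 (2.01 to 2.16). The ratio was largest for mir-38 (3.65, 2.96 to 4.52), mir-35 (2.64, 2.44 to 2.86) and mir-39 (2.53, 2.37 to 2.70). The ratio was 0.861 (0.780 to 0.950) for mir-42 and 1.02 (0.515 to 2.05) for mir-41. At least 2-fold higher were 4 of 8 members (mir-35, mir-38, mir-39 and mir-40), as were 9.66% of 145 miRNA genes. The oocyte list had 118 reads per 1000000 in this library (63 reads), against 68.1 without the alleles (41 reads). The highest L3 sum of this list was 141, in eri-1(mg366) exos-10(ok2269), where the family had 2789 RPM. The part of this list in the difference was not tested.

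The make-up of the family differed between L3 libraries with and without eri-1(mg366) more than its sum did. In the 5 eri-1(mg366) libraries mir-37 had 175 to 449 RPM (6.11% to 15.2% of family reads) and mir-39 led with 26.8% to 34.9%. Without eri-1(mg366) the member mir-37 led, with 1630, 1135 and 1413 RPM in dis-3(ust56), exos-1(ust57) and N2, or 38.3% to 43.3% of family reads. Ranges of the 5 libraries with eri-1(mg366) and the 3 without it did not overlap for mir-38, mir-39, mir-40 and mir-42, which were higher in eri-1(mg366), and for mir-37, which was lower. Of 143 miRNA genes with 10 or more reads in at least 3 L3 libraries, 21% were higher without overlap and 6.29% lower. Between eri-1(mg366) and N2 alone, mir-37 had a ratio of 0.284 (0.258 to 0.313), mir-35 of 0.542 (0.496 to 0.592), mir-42 of 1.46 (1.27 to 1.68) and mir-38 of 3.19 (2.46 to 4.17). In this pair 2 of 8 members (mir-37 and mir-41) were at least 2-fold lower, where 25.4% of 142 genes were, and 1 (mir-38) was at least 2-fold higher, where 17.6% were. The cuticle and let-7 differences of exos-1(ust57) and N2 given above run along this comparison, and their part in it was not tested. In the pair without those libraries, mir-37 had 247 RPM in eri-1(mg366) dis-3(ust56), against 1630 RPM in dis-3(ust56), mir-35 had 499 against 1012 RPM, mir-38 had 68.0 against 26.4 RPM and mir-42 had 503 against 269 RPM. The labels do not say whether libraries with and without eri-1(mg366) were prepared together.

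**Figure D5:**
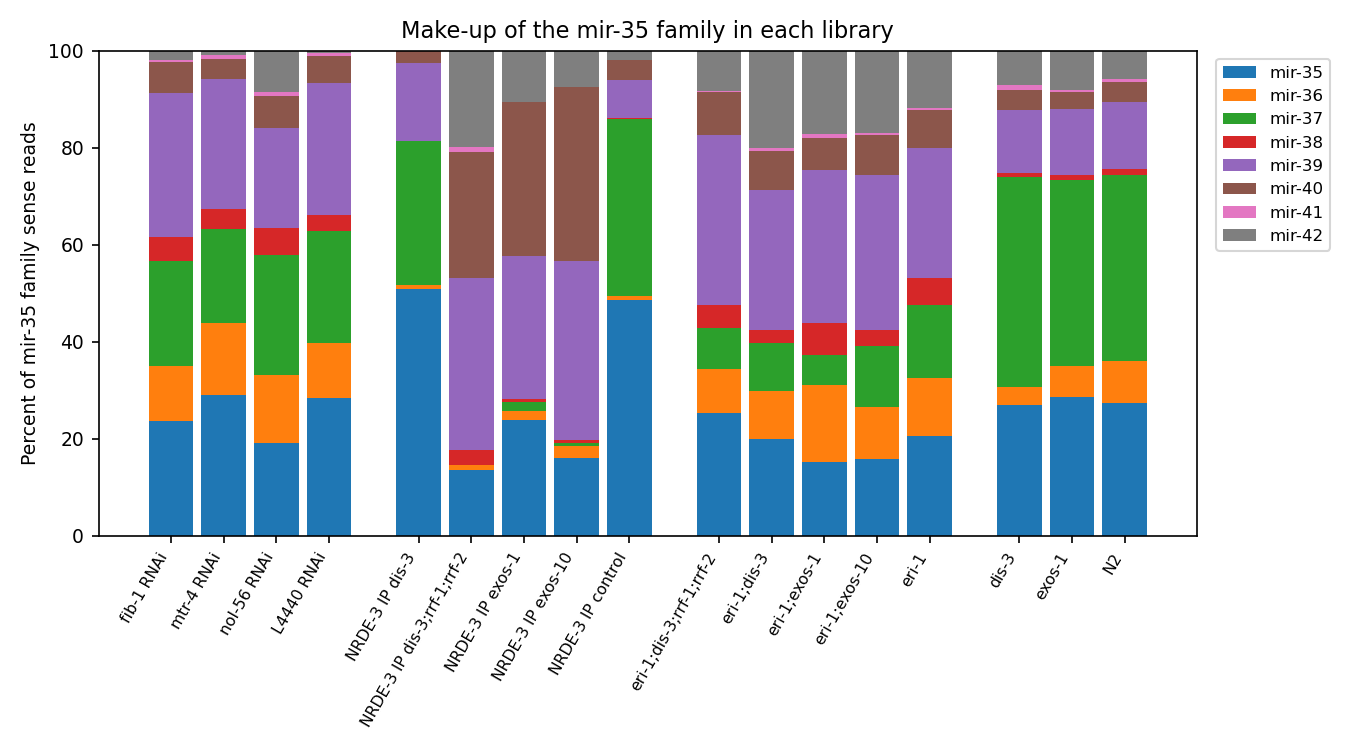
Percent of the family's sense reads that each of the 8 members contributed in each of the 17 libraries, stacked to 100, with young adult libraries at left, then NRDE-3 IP, L3 with eri-1(mg366) and L3 without it. The mir-37 segment takes 38.3% to 43.3% in L3 libraries without eri-1(mg366), and the control and dis-3(ust56) IP libraries carry mainly mir-35 and mir-37.

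Under fib-1, mtr-4, nol-56 and L4440 RNAi mir-35 supplied 23.5%, 28.9%, 19.1% and 28.3% of family reads, mir-37 supplied 21.7%, 19.3%, 24.7% and 23.0%, and mir-39 supplied 29.8%, 26.8%, 20.7% and 27.3%. These 3 members kept shares of 19.1% to 29.8% in young adults, whereas the share of mir-42 was 1.89%, 0.882% and 8.46% under fib-1, mtr-4 and nol-56 RNAi, against 0.436% under L4440.

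NRDE-3 binds siRNAs, so miRNAs in its IP measure what was carried along or bound besides them. Sense miRNA reads made up 0.131% to 8.30% of counted reads in the IP libraries, against 12.1% to 39.4% in L3 total libraries. Family levels in the IP libraries were uneven. The exos-1(ust57), exos-10(ok2269) and triple mutant IPs held 2065, 2356 and 2132 RPM (322, 293 and 96 reads) and the dis-3(ust56) IP 12070 RPM (118 reads), against 10371 RPM (8212 reads) in the control IP. Ratios to the control IP were 1.16 (0.962 to 1.40) for dis-3(ust56), 0.199 (0.178 to 0.223) for exos-1(ust57), 0.227 (0.201 to 0.255) for exos-10(ok2269) and 0.206 (0.166 to 0.251) for the triple mutant. They depend on the scale, for with the authors' normalization number as library size the same ratios were 0.140, 0.0197, 0.0171 and 0.0233, and the dis-3(ust56) IP lay below the control IP. Yolk fragments also differed between IPs, at 16.7 per 1000000 sense protein-coding reads in dis-3(ust56), against 1900 in the control, and their part was not tested.

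The difference lay in mir-35 and mir-37. In the dis-3(ust56) IP mir-35 had 6137 RPM and mir-37 3580 RPM, close to 5048 and 3791 RPM in the control IP. In the exos-1(ust57) and exos-10(ok2269) IPs mir-35 had 494 and 378 RPM and mir-37 38.5 and 16.1 RPM (6 and 2 reads). In the triple mutant mir-35 had 289 RPM and mir-37 had 0 reads of 45031, which allows up to 66.6 RPM. The levels of mir-39 (609 to 1944 RPM) and mir-40 (307 to 844 RPM) spanned narrower ranges over the 5 IPs. At least 2-fold lower than in the control IP were 4 of 7 members in the exos-1(ust57) IP, 3 of 7 in the exos-10(ok2269) IP and 3 of 7 in the triple mutant IP, where 31.4%, 27.7% and 43.2% of the miRNA genes with 10 or more reads in either library were. Among these members mir-41 had 0 reads in the exos-1(ust57) and exos-10(ok2269) IPs, against 12 reads in the control IP, with intervals of the ratio that reach 1.83 and 2.29, so a difference in mir-41 was not detectable at this depth. The same holds for mir-36, which had 6 reads in the exos-1(ust57) IP (ratio 0.491, 0.174 to 1.13) and 1 read in the triple mutant IP (0.284, 0.00707 to 1.64).

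Each IP library was also set against the total library with the same mutations, which by its label lacks the tagged NRDE-3 (edgeR quasi-likelihood test with these mutations as a block, 129 miRNA genes). Only mir-36 and mir-38 were called, both lower in the IP, where 38% of all genes tested were called lower, and 0 of 8 members were called higher, where 17.8% of all genes were. For mir-36 the IPs of dis-3(ust56), the triple mutant, exos-1(ust57), exos-10(ok2269) and the control had 102, 22.2, 38.5, 56.3 and 78.3 RPM. These levels rest on 1, 1, 6, 7 and 62 reads. The matched totals had 245, 465.8, 455, 301 and 312 RPM (log2 fold change -2.73 ± 0.64, edgeR adjusted p = 0.0032). The levels themselves did not overlap, but the counting interval of the dis-3(ust56) IP (18.1 to 579 RPM) included its matched total. The IP levels of mir-38 rest on 15 reads in all (0 to 66.6 RPM, against 68.0 to 248 RPM in the totals, log2 fold change -3.11 ± 0.70, edgeR adjusted p = 0.0023). The remaining members had log2 fold changes from -1.15 ± 0.62 for mir-42 (edgeR adjusted p = 0.13) to 1.15 ± 0.54 for mir-40 (adjusted p = 0.085). For mir-37 the estimate was -0.86 ± 1.60 (adjusted p = 0.68), and without the control and dis-3(ust56) pairs, an alternative chosen after seeing the data, it was -3.74 (adjusted p = 0.0023) with 3 of 7 members called lower. DESeq2 called mir-36, mir-38 and mir-42 lower and mir-40 higher. Outside the family, let-7 was among the miRNAs higher in the IP (4.23 ± 0.74, edgeR adjusted p = 0.00045) and mir-43 among those lower (-4.96 ± 0.99, edgeR adjusted p = 0.0011).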

How the data were processed

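Small RNAs were sequenced from L3 total RNA (8 libraries), L3 NRDE-3 immunoprecipitates (5) and young adult total RNA after RNAi (4). RNA was treated with phosphatase and kinase before ligation. The authors mapped reads with Bowtie2 to the genome and the WS243 transcriptome and deposited counts per transcript in sense and antisense, unnormalized. Food is given as OP50 for all libraries in the labels, whereas the study's methods give HT115 for RNAi.

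Here rows were summed per miRNA gene (224 genes, 603 rows), and empty cells were read as 0. Symbols, arms and coordinates came from the Ensembl 115 WBcel235 annotation by identifier, which named 19667 of 20535 protein-coding genes. Levels are sense reads per 1000000 sense miRNA reads. edgeR 4.0.16 quasi-likelihood tests used the sense miRNA total as library size and genes with 10 or more reads in at least 4 (stage), 2 (exosome) or 5 (IP) libraries, with Benjamini-Hochberg adjustment. p-values measure the spread between single libraries of different conditions. Pairs of libraries carry exact conditional binomial 95% intervals. Tested on simulated data, 8-fold changes were recovered for 39 of 40 genes in the stage fit, 36 of 40 in the exosome fit and 39 of 40 in the IP fit. Among unchanged genes, false calls were 0 of 99, 1 of 108 and 2 of 89. Smaller changes were not simulated, so the recovery does not apply to changes as small as those of the members in the exosome fit. Alternatives were TMM, DESeq2 1.42.0, no filter, other library sizes (the authors' normalization number, here transcript-counted reads minus sense rRNA and protein-coding reads), other rows or samples, and leaving out each library.

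The named miRNA genes were the members, mir-43 to mir-45, lin-4 and let-7 relatives, the mir-51 family, the 5 most similar in level, and the 3 largest rises and 3 largest falls among other called genes. One listed let-7 relative, mir-48, was not analysed here. Members and lists were chosen with earlier results of these data known.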

Additional observations from a re-analysis of the deposited data

Results flagged for a closer look

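Several values stood apart from the rest of their group, by a gap to the nearest library that was large for the group's range. Over 27 sets of values (8 members and the family in 3 groups) 11 did so. The sets are not independent, since the family sums the members and all share their libraries, so this count has no chance rate beside it. The L4440 library was highest of the 4 young adult libraries for mir-35 (25220 RPM), mir-36 (10211 RPM), mir-37 (20468 RPM), mir-39 (24266 RPM), mir-40 (5077 RPM) and the family (89041 RPM). Among the 8 L3 total libraries, the triple mutant was highest for mir-39 (1819 RPM), mir-40 (463 RPM) and the family (5209 RPM). Among the 5 IP libraries, mir-38 stood at 66.6 RPM (3 reads) in the triple mutant and mir-39 at 1944 RPM (19 reads) in dis-3(ust56), both the highest of their set.

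The member mir-39 moved one way in the exosome mutants without eri-1(mg366) and the other way in those with it. Its ratio to the control over N2 was 0.966 for dis-3(ust56) and 0.788 for exos-1(ust57), and the ratios were 1.02, 1.28 and 1.26 for dis-3(ust56), exos-1(ust57) and exos-10(ok2269) over eri-1(mg366). This difference was not tested, and the intervals of both dis-3(ust56) ratios include 1 (0.890 to 1.05 over N2 and 0.931 to 1.11 over eri-1(mg366)).

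Antisense reads on the members were not part of any comparison above. The exos-10(ok2269) IP held 34 of them, 16 on mir-38, against 8 in the control IP, a ratio of 4.35 per counted read (exact conditional binomial 95% interval 1.97 to 10.9). The same library held 2391 antisense reads on all miRNA genes, against 896 in the control IP.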

How the results depend on the processing

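With 1 library per condition, leaving out 1 library at a time gave 4 to 7 members higher in young adults (4 without L4440) and 0 to 1 lower, 83 to 89 miRNA genes called, a family difference in mean log2 level of 0.79 (without L4440) to 2.88 (without nol-56 RNAi), 0 members called in exosome mutants and 2 in the IP. With the authors' normalization number as library size, 4 members were higher, and 18 genes were called higher and 89 lower, 16.8% higher among the calls against 46.7%. The median of all miRNA genes then lay at -1.59 on the log2 scale, against -0.30 with the miRNA total and 0.08 with TMM. TMM and DESeq2 each called 0 members lower in young adults, and DESeq2 called 4 in the IP. The sense reads of all genes were also fitted together, with the sense miRNA total still as library size. Then 13121 of 13938 genes were called and 7 members were higher. A library size of all sense reads was not tried. The L4440 and eri-1(mg366) libraries alone, chosen after seeing the data, gave a family difference of 5.07.

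With the normalization number the family ratio was 8.32 for L4440 over eri-1(mg366), and 0.161, 0.151 and 0.0226 for fib-1, mtr-4 and nol-56 RNAi over L4440. It was 1.68 for dis-3(ust56) over N2, 2.35 for the triple mutant over its dis-3(ust56) control and 0.823 for dis-3(ust56) in eri-1(mg366). It turned direction for eri-1(mg366) over N2 (1.30) and for exos-1(ust57) in eri-1(mg366) (0.523). In the IP it was 0.140 for dis-3(ust56), 0.0197 for exos-1(ust57), 0.0171 for exos-10(ok2269) and 0.0233 for the triple mutant. Counting the row with most reads per gene gave 0.124 for mtr-4 RNAi over L4440 and 0.199 for the exos-10(ok2269) IP over its control. The cause of these changes was not tested. The labels carry no replicate numbers, and the IP comparison, blocked by genotype, called 3 members without the block (mir-36 and mir-38 lower, mir-40 higher). The 9776 sense miRNA reads of the dis-3(ust56) IP give a floor of 307 RPM (3 reads), against 3.79 RPM in the control IP.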
